A study of Mus musculus with 40 samples.

Results

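MHC class I antigen presentation genes and those of the immunoproteasome were followed in B cells from the spleens of wild-type mice and of mice without Dock10. They were chosen by name, as 10 genes whose symbol in the array's annotation is B2m, H2-K1, H2-D1, Tap1, Tap2, Tapbp, Psmb8, Psmb9, Psmb10 or Nlrc5, out of 21892 genes with a symbol on the arrays. They were read by 13 probes. H2-K1, Psmb9 and Nlrc5 had 2 probes each and the other 7 genes 1, and the probes of a gene were averaged. All mice were C57BL/6 and 12 weeks old, and B cells were isolated from the spleen by negative selection. WT_Pre and KO_Pre are cells before culture from 10 wild-type and 10 Dock10 knockout mice. For mice 6 to 10 of both genotypes, cells were also kept in medium with fetal calf serum for 18 h. The medium held either no additions (groups WT_Ctrl and KO_Ctrl) or 10 ng/ml of the cytokine IL-4 (groups WT_IL4 and KO_IL4), and each of these 4 groups has 5 samples. The labels do not say how the Dock10 allele was made or which cells lack it. Each of the 40 arrays compared 1 sample in Cy5 with the same pool of RNA in Cy3. The pool is described as RNA of the KO_Pre cells of mice 6 to 10. A value is thus a log2 ratio to a pool given as knockout cells before culture. These ratios do not compare the level of one gene with that of another.

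Class I molecules show peptides from inside the cell to CD8 T cells and are carried by nearly all nucleated cells. The heavy chains H2-K1 and H2-D1 pair with the light chain B2m. Cytosolic peptides are cut by the proteasome, in which Psmb8, Psmb9 and Psmb10 replace the constitutive catalytic subunits Psmb5, Psmb6 and Psmb7 to form the immunoproteasome. The transporter made of Tap1 and Tap2 moves the peptides into the endoplasmic reticulum, where tapasin, the product of Tapbp, helps load them. Nlrc5 is the transactivator of class I genes, and interferons induce most genes of this pathway. IL-4 is a cytokine to which B cells respond through its receptor.

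The promoters of the 3 genes that form the class I molecule are shown because they share a pair of motifs that no other window of the 10 genes held. RefSeq windows on GRCm38.p6 were matched for 8 of the 10 genes, and none was at hand for Tap2 and Nlrc5. The 250 bases before the start are B2m at chr2:122147437-122147686 on the plus strand, H2-K1 at chr17:34000348-34000597 on the minus strand (the first of its windows) and H2-D1 at chr17:35262844-35263093 on the plus strand.
B2m: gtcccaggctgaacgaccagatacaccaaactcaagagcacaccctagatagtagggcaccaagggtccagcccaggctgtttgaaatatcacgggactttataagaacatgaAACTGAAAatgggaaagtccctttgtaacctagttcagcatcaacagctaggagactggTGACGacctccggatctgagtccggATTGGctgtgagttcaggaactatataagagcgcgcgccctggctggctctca
H2-K1: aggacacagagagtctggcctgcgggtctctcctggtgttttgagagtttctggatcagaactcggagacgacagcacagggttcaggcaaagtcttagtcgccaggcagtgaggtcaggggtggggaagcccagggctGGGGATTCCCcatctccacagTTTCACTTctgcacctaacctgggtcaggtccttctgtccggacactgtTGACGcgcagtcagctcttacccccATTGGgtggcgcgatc
H2-D1: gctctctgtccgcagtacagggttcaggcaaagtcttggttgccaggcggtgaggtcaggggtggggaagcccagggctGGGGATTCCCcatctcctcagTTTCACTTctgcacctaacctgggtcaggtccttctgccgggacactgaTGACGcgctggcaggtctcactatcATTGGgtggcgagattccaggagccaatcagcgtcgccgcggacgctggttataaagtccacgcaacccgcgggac
Capitals mark 3 motifs, searched on both strands and chosen after the letters were seen. The pair TGACG and ATTGG with 20 bases between them has the letters of the X2 and Y boxes of class I promoters, and was found in B2m, H2-K1 and H2-D1 alone among the 8 windows and in 0.0913% of 32851 promoter windows. The motif AANNGAAA, the core of interferon response elements, was in the same 3 genes and in 21.3% of all windows (H2-K1 and H2-D1 hold it on the other strand). The NF-kappaB motif, GGG and TTCCC with any 2 bases between them, was in H2-K1 and H2-D1 and in 1.53% of all windows. H2-K1 and H2-D1 are closely related genes, so their probes may read both and their values are uncertain as separate measurements. Tap1 and Psmb9 lie beside each other on chromosome 17, which holds 7 of the 10 genes.

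All genes had a value on all arrays. The SD of an array's log2 ratios was 0.313 to 0.888 before culture and 0.714 to 1.33 after it. Dock10 in WT_IL4 had log2 ratios of 1.04 to 1.80 and in KO_IL4 of 0.26 to 0.83, without overlap, while the other states overlapped, and its probes could lie outside the deleted part. Before culture 10 arrays, numbers 1 to 4 and 10 of both genotypes, had Xist at 4.74 or above and Eif2s3y at -10.1 or below. The other 30 arrays, all 20 cultured ones included, had Xist at 0.85 or below, so for number 10 the array before culture did not match the cultured ones in sex-linked genes, although the labels give 1 mouse. Results were therefore also computed from mice 6 to 9. Knockout mouse 10 is also named in the reference pool. Whether the pool held the RNA read on array KO_Pre 10 was not tested. Array WT_Ctrl 6 stood apart from the other WT_Ctrl arrays in several genes described here. B cell markers, of which 7 of 8 were measured, had array medians of -0.74 to -0.07 in WT_Ctrl and of -1.12 to -0.82 in KO_Ctrl. In these bulk samples fewer cells of a type and less RNA per cell cannot be told apart. Whether the arrays of 2 groups overlap is given as a description only. The share of all genes without overlap was not counted.

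Before culture no difference between the genotypes was called in any of the 10 genes. With limma 0 of 21892 genes were called (0%), and 892 genes but 0 of the 10 had an unadjusted p under 0.05. The log2 differences between KO_Pre and WT_Pre ran from -0.39 to 0.13, with a median of 0.019 against 0.02 over all genes. Tap2 had the lowest of these differences (-0.39, adjusted p = 1, n = 10 mice each). Its ratios were -0.52 to 1.23 (median 0.07) in WT_Pre and -0.39 to 0.29 (median -0.22) in KO_Pre, so the wild-type arrays spread more widely and the groups overlapped. In both genotypes arrays 5 and 10 stood apart in some of the genes. Tap1 was -1.40 and -1.22 in WT_Pre 5 and 10, and -0.42 or above in the other 8. H2-K1 and H2-D1 were also lowest in these 2 arrays, at -0.71 and -0.77 for H2-K1. Psmb8 was highest there, at 0.21 and 0.12, against -0.17 or below in the other WT_Pre arrays. KO_Pre 5 and 10 had the highest Psmb8 of their group as well, at 0.12 and 0.21. Arrays 5 and 10 also had the lowest medians over all probes, -0.139 and -0.132 in WT_Pre (WT_Pre 4 had -0.127) and -0.158 and -0.16 in KO_Pre. The part of this in the values of the 10 genes was not tested.

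**Figure D1:**
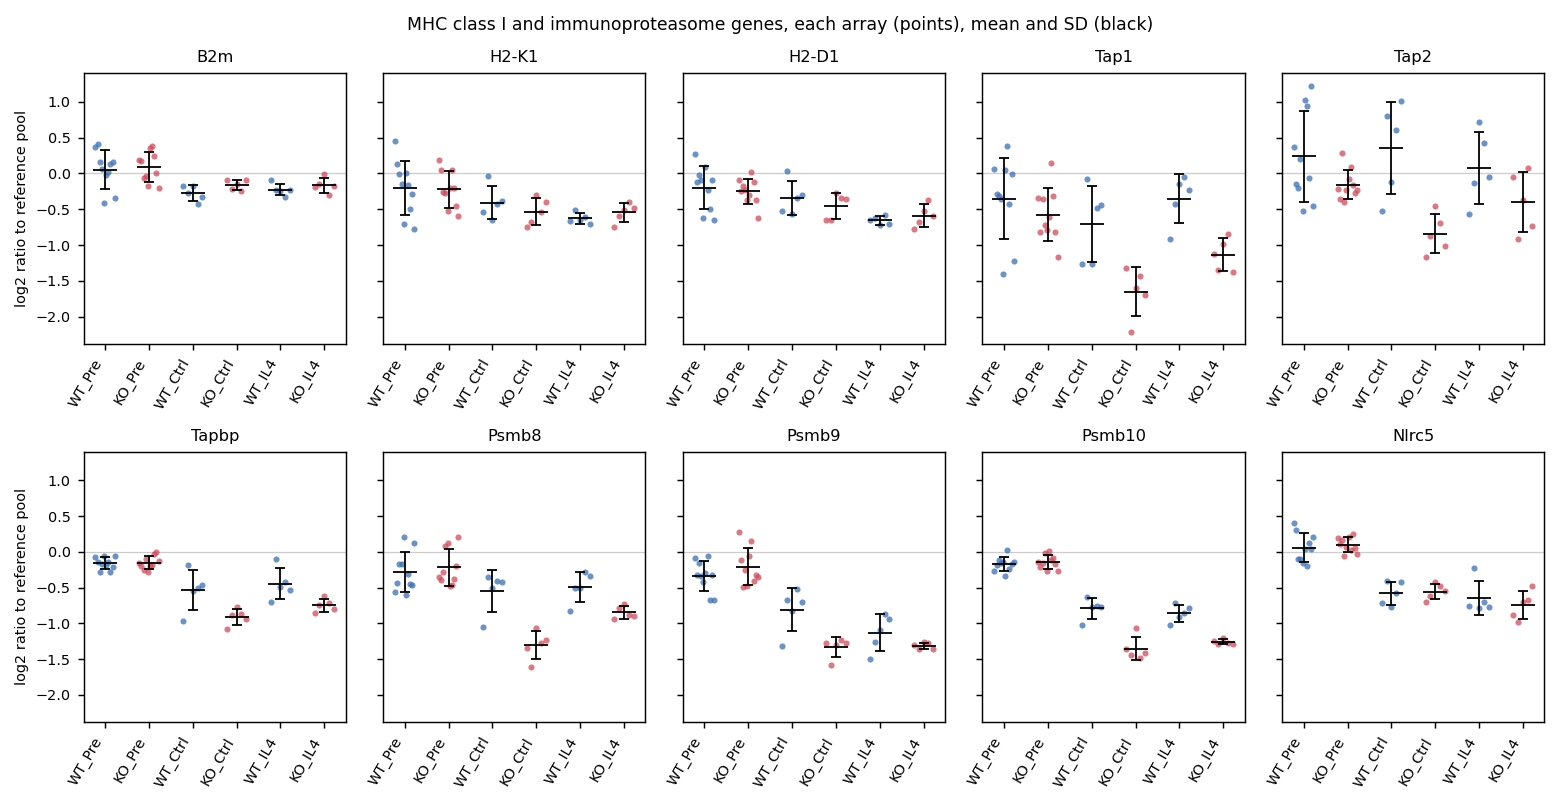
Log2 ratio to the reference pool of each of the 10 genes (panels) in every array (points, wild-type blue and knockout red) of the 6 groups, with the group mean and SD in black. Psmb8, Psmb9, Psmb10 and Tapbp have lower means in the cultured groups than before culture, and Tap1, Psmb8 and Psmb10 do not overlap between WT_Ctrl and KO_Ctrl.

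After culture without IL-4, genes of peptide processing and transport were lower in knockout cells, while those of the class I molecule itself were not called. Of the 10 genes 6 fell and 0 rose in KO_Ctrl against WT_Ctrl, where 15.3% of all genes were called (8.43% fell and 6.87% rose). The median log2 difference of the 10 was -0.45, against 0.05 over all genes. The 6 genes were the 3 immunoproteasome subunits, both transporter genes and Tapbp.

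Psmb10, the subunit that replaces Psmb7, had log2 ratios of -1.02, -0.62, -0.77, -0.76 and -0.76 in WT_Ctrl (mice 6 to 10). In KO_Ctrl it had -1.36, -1.44, -1.07, -1.48 and -1.42. Every knockout array was lower than every wild-type array, with mouse 8 the highest of the knockouts. The difference was -0.57 (SE 0.09, limma adjusted p = 5.85e-05), or 1.48-fold. Psmb8, which replaces Psmb5, was -1.06, -0.35, -0.51, -0.40 and -0.43 in WT_Ctrl and -1.34, -1.60, -1.07, -1.27 and -1.24 in KO_Ctrl. The groups did not overlap, but WT_Ctrl 6 lay next to the highest knockout array. Psmb8 fell by 0.76 (SE 0.15, limma adjusted p = 0.000808), or 1.69-fold. Psmb9, which replaces Psmb6, was -1.31, -0.68, -0.82, -0.52 and -0.71 in WT_Ctrl and -1.27, -1.58, -1.30, -1.23 and -1.27 in KO_Ctrl. WT_Ctrl 6 lay within the knockout range and the other 4 wild-type arrays above it. Psmb9 fell by 0.53 (SE 0.14, limma adjusted p = 0.0128).

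The transporter gene Tap1 was -1.26, -0.08, -1.26, -0.49 and -0.44 in WT_Ctrl and -1.33, -2.21, -1.60, -1.43 and -1.70 in KO_Ctrl. WT_Ctrl 6 and 8 were low and close to the highest knockout array, and the groups did not overlap. Tap1 fell by 0.94 (SE 0.28, limma adjusted p = 0.0186), or 1.92-fold. Its partner Tap2 was -0.52, 0.80, -0.12, 0.61 and 1.01 in WT_Ctrl and -1.16, -0.88, -0.45, -0.70 and -1.01 in KO_Ctrl. WT_Ctrl 6 was again the lowest wild-type array and fell within the knockout range. Tap2 fell by 1.196 (SE 0.31, limma adjusted p = 0.00766), or 2.29-fold, the widest difference of the 10 genes. In the same mice 6 to 10 its means already lay apart before culture, at 0.53 in WT_Pre and -0.13 in KO_Pre. Tapbp, the loading chaperone, was -0.97, -0.18, -0.55, -0.51 and -0.46 in WT_Ctrl and -1.08, -0.89, -0.77, -0.87 and -0.94 in KO_Ctrl. All wild-type arrays but WT_Ctrl 6 lay above the knockout range. Tapbp fell by 0.37 (SE 0.11, limma adjusted p = 0.0205).

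The heavy chain H2-K1 was -0.54, -0.04, -0.64, -0.43 and -0.39 in WT_Ctrl and -0.75, -0.68, -0.31, -0.53 and -0.40 in KO_Ctrl, and the groups overlapped. Its difference of -0.12 was not called (95% interval -0.40 to 0.15, limma adjusted p = 0.604). H2-D1 differed by -0.11 (95% interval -0.39 to 0.17). The light chain B2m differed by 0.12 (95% interval -0.10 to 0.33), with ratios of -0.43 to -0.17 in WT_Ctrl and -0.24 to -0.09 in KO_Ctrl. Each of these intervals allows a difference of about the size seen for Tapbp in one direction or the other, so they do not show that the levels were equal. Nlrc5 differed by 0.02 (95% interval -0.21 to 0.25), a mean of 2 probes that went apart, as described below.

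**Figure D2:**
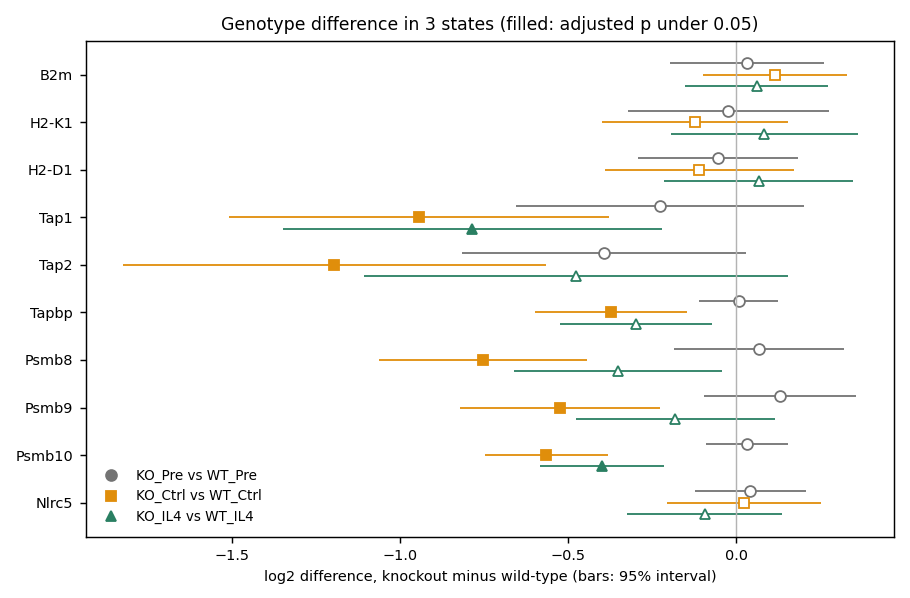
Log2 difference between knockout and wild-type cells (horizontal axis) for each gene, before culture (grey circles), after culture without IL-4 (orange squares) and with IL-4 (green triangles). Bars are 95% intervals and filled symbols have a limma adjusted p under 0.05. In culture without IL-4 the 3 Psmb genes, Tap1, Tap2 and Tapbp lie to the left of 0.

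Other genes moved with the same contrast. All 14 measured interferon-stimulated genes were lower in KO_Ctrl, with a median difference of -2.24. Their array medians were -1.85 in WT_Ctrl 6, -0.45 to 0.62 in the other WT_Ctrl arrays and -2.96 to -2.32 in KO_Ctrl. Of 7 B cell markers 5 were lower, with a median of -0.57, and of 7 erythroid markers 2 were higher, with a median of 0.47. NK cell (median 0.30) and dendritic cell markers (0.44) were each higher for 2 of 7 and lower for 0. Of 8 T cell markers 1 was higher and 1 lower (median -0.63), of 13 monocyte and macrophage markers 1 and 1, and of 8 neutrophil markers 1 was higher. Their part in the differences above was not tested. Quantile normalization between arrays, which gives all arrays one distribution, ended all 6 calls (Psmb10 -0.40, adjusted p = 0.135; Tap2 -0.99, 0.131; Psmb8 -0.39, 0.519; Tap1 -0.59, 0.439; Psmb9 -0.165, 0.817; Tapbp -0.285, 0.436). Quantile normalization of the 20 cultured arrays alone, chosen after the data were seen, kept Tap2 (adjusted p = 0.0205) and Psmb10 (0.0331), and from mice 6 to 9 the calls of Tapbp (0.103) and Psmb9 (0.0512) were lost.

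With IL-4 Psmb10 and Tap1 were lower in knockout cells, and the other 8 genes were not called. In KO_IL4 against WT_IL4 2 of the 10 genes fell and 0 rose, where 18.4% of all genes were called (9.85% fell and 8.57% rose). The median of the 10 was -0.24, against -0.08 over all genes. Psmb10 was -1.03, -0.71, -0.91, -0.86 and -0.79 in WT_IL4 and -1.24, -1.29, -1.20, -1.27 and -1.29 in KO_IL4. The groups did not overlap and the knockout arrays lay close together. Psmb10 fell by 0.40 (SE 0.09, limma adjusted p = 0.00296). Tap1 was -0.91, -0.42, -0.14, -0.05 and -0.24 in WT_IL4 and -1.13, -1.35, -0.99, -0.84 and -1.38 in KO_IL4. The ranges overlapped at WT_IL4 6. Tap1 fell by 0.79 (SE 0.28, limma adjusted p = 0.0467), close to the threshold, and the call was lost without any 1 of 9 arrays. Tapbp differed by -0.30 (adjusted p = 0.059), Psmb8 by -0.35 (0.1), Tap2 by -0.48 (0.275) and Psmb9 by -0.18 (0.388). H2-K1, H2-D1 and B2m differed by 0.08, 0.07 and 0.06, with 95% intervals of -0.19 to 0.36, -0.21 to 0.35 and -0.15 to 0.27. Of the interferon-stimulated genes 13 of 14 were lower in KO_IL4 (median -1.80). Of 8 T cell markers 4 were lower and 1 higher (median -1.40), and of 7 B cell markers 3 were lower (median -0.48). Their part in these values was not tested. Without the arrays of wild-type mouse 6 Tapbp (-0.36, adjusted p = 0.0095) and Psmb8 (-0.44, adjusted p = 0.0234) were called too, and Psmb8 also in a fit of these groups alone (adjusted p = 0.0427). Quantile normalization ended the call of Psmb10 (-0.15, adjusted p = 0.607), as did that of the 20 cultured arrays (-0.18, 0.381).

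In the main fit IL-4 itself changed none of the 10 genes past the threshold in either genotype. In wild-type cells 0 of the 10 were called, against 26.9% of all genes (11.4% lower and 15.5% higher with IL-4), and 2 of the 10 had an unadjusted p under 0.05. These were Psmb9 (-0.32, adjusted p = 0.0959) and H2-D1 (-0.31, adjusted p = 0.0912), lower with IL-4 in 5 of 5 mice each. In 2 settings chosen after the data were seen Psmb9 and H2-D1 were called lower. These were quantile normalization of the 20 cultured arrays (limma adjusted p = 0.0103 and 0.0159) and the background covariate (0.0436 and 0.0264). H2-D1 was -0.53, 0.03, -0.57, -0.35 and -0.30 without IL-4 and -0.65, -0.62, -0.72, -0.58 and -0.70 with it, without overlap. In knockout cells 0 of the 10 were called, against 8.4% of all genes (4.39% lower and 4% higher). Psmb8 came nearest. It was -1.34, -1.60, -1.07, -1.27 and -1.24 without IL-4 and -0.94, -0.78, -0.73, -0.88 and -0.90 with it, higher in 5 of 5 mice and without overlap. The difference was 0.46 (SE 0.15, limma adjusted p = 0.0586), and with the mouse as a block, since cells of 1 mouse were split between both cultures, it was called (adjusted p = 0.0183). Tap1 was higher with IL-4 in 5 of 5 knockout mice (0.52, adjusted p = 0.283). The IL-4 effects differed between the genotypes in 0 of the 10 genes, against 1.19% of all genes (0.585% lower and 0.608% higher). Psmb8 (0.40, adjusted p = 0.351) and Tap2 (0.72, adjusted p = 0.418) had the higher of these differences.

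After culture without IL-4 Psmb9, Psmb10, Tapbp and B2m were called lower in both genotypes, and Psmb8 and Tap1 in knockout cells. The difference between the genotypes was called for the 3 Psmb genes, and for Psmb9 that call was lost without any 1 of 8 arrays. In wild-type cells 5 of the 10 genes fell and 0 rose, where 39.5% of all genes were called (26.4% fell and 13.2% rose). In knockout cells 7 fell and 0 rose, where 51% of all genes were called (31.2% fell and 19.8% rose). The medians of the 10 were -0.31 and -0.75, and those of all genes -0.15 and -0.12. Psmb10 was lower after culture in 5 of 5 mice of each genotype. In wild-type cells Psmb10 fell by 0.61 (SE 0.09, limma adjusted p = 9.59e-06). The knockout value was -1.23 (SE 0.09, limma adjusted p = 3.5e-11). The mean of the Nlrc5 probes was -0.62 and -0.66 (adjusted p = 0.000134 and 2.73e-05), but in knockout cells 1 of its 2 probes gave -0.002 (adjusted p = 0.994). Tapbp fell by 0.36 and 0.80, Psmb9 by 0.40 and 1.14 (adjusted p = 4.69e-07 in the knockout) and B2m by 0.26 and 0.32. In wild-type cells the call of B2m was lost without any 1 of 7 arrays (WT_Pre 6 to 9, WT_Ctrl 7, 9 or 10; -0.27 to -0.22). That of Psmb9 was lost without any 1 of 4 (WT_Pre 6, 7 or 9, or WT_Ctrl 6, where it was -0.28), and that of Tapbp without WT_Ctrl 6 (-0.25). Psmb8 fell by 1.04 (adjusted p = 3.18e-06) and Tap1 by 1.1 (adjusted p = 0.00168) in knockout cells, and in wild-type cells their differences were -0.21 and -0.46 (adjusted p = 0.273 and 0.183). H2-K1 and H2-D1 were not called in either genotype. The difference between the genotypes was called for 3 of the 10 genes, all lower, where 6.68% of all genes were called (4.46% lower and 2.22% higher). It was -0.83 for Psmb8 (SE 0.21, adjusted p = 0.0159), -0.73 for Psmb9 (SE 0.20, 0.0275) and -0.62 for Psmb10 (SE 0.13, 0.00275). For Psmb9 it was -0.71 to -0.65 without WT_Pre 8 or 10, WT_Ctrl 7, 9 or 10, KO_Pre 6 or 7, or KO_Ctrl 7, each of which ended its call. In a fit of the groups compared alone Psmb8 (adjusted p = 0.0531) and Psmb9 (0.0662) were not called, and Psmb9 was not called with the background (0.0618) or spike-in ratio (0.115) as a covariate. Tapbp (-0.44, adjusted p = 0.0949; 0.0266 with the mouse as a block), Tap1 (-0.64, adjusted p = 0.39) and Tap2 (-0.53, adjusted p = 0.554) did not pass. These comparisons share the groups of the genotype comparisons above.

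**Figure D3:**
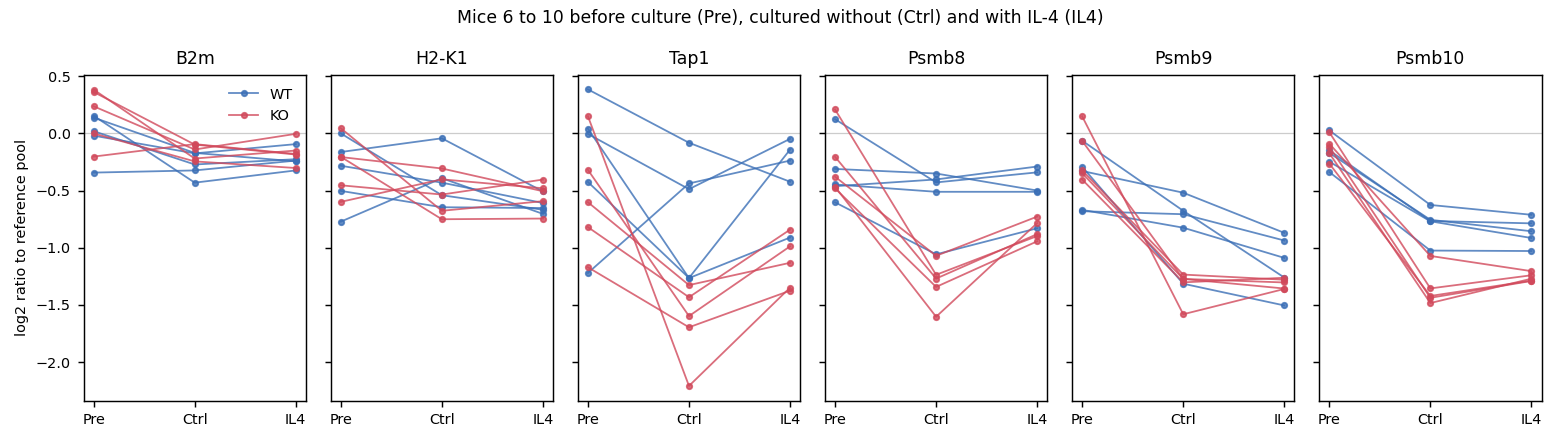
Log2 ratio to the reference pool of 6 genes in mice 6 to 10, each mouse as a line from before culture (Pre) to culture without IL-4 (Ctrl) and with IL-4 (IL4), wild-type blue and knockout red. Psmb8, Psmb9 and Psmb10 lie lower after culture in knockout than in most wild-type mice, and B2m spans a narrower range than they do.

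The values after culture depended on scaling. Cultured arrays also spread more than those before culture, and the part of that spread was not tested. Centring each array on its median left 2 of the 5 wild-type calls, Psmb10 (-0.48) and Nlrc5 (-0.49), and 6 of the 7 knockout calls. With centring 7996 of all 21892 genes were called in wild-type cells and 10943 in knockout cells. Quantile normalization left 1 wild-type call, Nlrc5, and 4 knockout calls. It called 6820 of all 21892 genes in wild-type cells and 8142 in knockout cells. In knockout cells it took Psmb8 to -0.10 (adjusted p = 0.788), Tap1 to -0.20 (0.664) and Tapbp to -0.37 (0.0623). It also ended the calls of the difference for Psmb8 (-0.40, adjusted p = 0.622), Psmb9 (-0.48, 0.362) and Psmb10 (-0.55, 0.152). The background ratio at control spots was -1.29 to -0.82 in WT_Ctrl, -1.79 to -0.72 in KO_Ctrl and -1.74 to 1.08 before culture, and with it as a covariate the B2m differences turned to 0.01 and 0.12 and the Tap1 difference in knockout cells was -0.12 (adjusted p = 0.872). From mice 6 to 9 the differences were -0.81 for Psmb8 (adjusted p = 0.0308), -0.69 for Psmb9 (0.118) and -0.63 for Psmb10 (0.0232). These mice gave 6 wild-type and 8 knockout calls, beside 9632 and 11108 over all genes.

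Marker lists moved with culture as well. Of all genes 26.4% fell and 13.2% rose in wild-type cells, and 31.2% fell and 19.8% rose in knockout cells. In knockout cells 14 of 14 interferon-stimulated genes (median -2.74) and 6 of 7 B cell markers (median -1.06) were lower. In wild-type cells 3 of 14 (median -0.48) and 1 of 7 (median -0.27) were lower, and 6 of 7 NK cell markers were lower (median -2.28; 5 lower and 1 higher in knockout cells). Of 8 neutrophil markers 5 were lower and 1 higher in wild-type cells, and 4 lower and 1 higher in knockout cells. Of 13 monocyte and macrophage markers 7 were lower and 3 higher in wild-type cells, and 6 and 5 in knockout cells. For 7 dendritic cell markers the counts were 4 lower and 0 higher, and 3 and 1. For 8 T cell markers they were 1 lower and 1 higher, and 2 and 3. For 7 erythroid markers they were 3 lower and 0 higher, and 1 and 2. The culture difference was lower for 12 of 14 interferon-stimulated genes (median -2.25) and 3 of 7 B cell markers, and higher for 3 of 7 erythroid markers. It was higher for 1 marker each of the monocyte and macrophage, T cell, NK cell and dendritic cell lists. Of all genes 4.46% were lower and 2.22% higher. The part of these in the values of the 10 genes was not tested.

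Cells cultured with IL-4 were also set against those before culture. Of the 10 genes 4 fell and 0 rose in wild-type cells, where 26.9% of all genes were called (14.3% fell and 12.7% rose). In knockout cells 6 fell and 0 rose, where 46.4% of all genes were called (27.8% fell and 18.6% rose). Psmb9 and Psmb10 fell by 0.73 and 0.68 in wild-type cells and by 1.11 and 1.13 in knockout cells, without overlap in either genotype. The mean of the Nlrc5 probes was -0.69 and -0.84, and in knockout cells its probes gave -1.36 and -0.32 (adjusted p = 0.0893 for the second). H2-D1 was the fourth gene in wild-type cells (-0.38, adjusted p = 0.0381), a call lost without any 1 of 7 arrays. Tapbp (-0.64), Psmb8 (-0.58) and B2m (-0.32) were the others in knockout cells, and quantile normalization took Tapbp to -0.26 (adjusted p = 0.207) and Psmb8 to 0.12 (0.725).

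The 2 probes of Nlrc5 differed in their response. The first probe, A_55_P2016034, had a mean of -0.85 ± 0.28 for WT_Ctrl and of -1.24 ± 0.10 for KO_Ctrl (SD, n = 5). It was lower in the knockout by -0.39 without IL-4 (adjusted p = 0.0447 over all probes) and by -0.39 with it (0.0356). The second, A_66_P113043, was higher in KO_Ctrl (0.13 ± 0.22) than in WT_Ctrl (-0.31 ± 0.19), a difference of 0.43 that was not called (adjusted p = 0.0611). After culture the first probe fell by 1.31 in knockout cells, and the second differed by -0.002 (adjusted p = 0.994). The mean over the probes therefore does not describe either of them. The probes of Psmb9 went the same way, with differences between KO_Ctrl and WT_Ctrl of -0.55 (adjusted p = 0.00254) and -0.50 (adjusted p = 0.233). Of the H2-K1 probes one fell in culture in knockout cells by 0.35 (adjusted p = 0.0112) and the other differed by -0.15 (0.46).

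**Figure D4:**
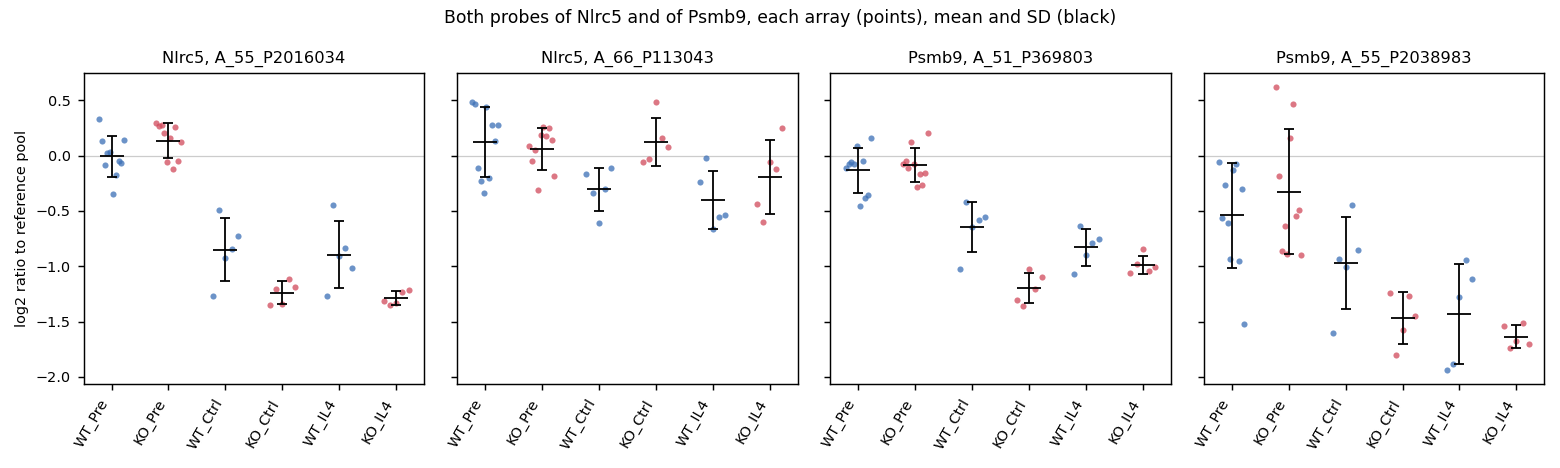
Log2 ratio to the reference pool for both probes of Nlrc5 and both of Psmb9 (panels), each array as a point with the group mean and SD in black. The first Nlrc5 probe is low after culture in both genotypes and lower in the knockout, and the second has KO_Ctrl near its level before culture.

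The immunoproteasome subunits were set against the subunits they replace, as a description. Before culture the mean difference over the 3 pairs was -0.30 ± 0.16 for wild-type and -0.18 ± 0.16 for knockout mice (SD, n = 10). WT_Ctrl had -0.91 ± 0.33 and KO_Ctrl -1.66 ± 0.12 (SD, n = 5). The values for WT_IL4 and KO_IL4 were -1.38 ± 0.23 and -1.65 ± 0.05 (SD, n = 5). Psmb5, Psmb6 and Psmb7 were not called between the genotypes in any of the 3 states. IL-4 raised Psmb5 by 0.51 (adjusted p = 0.000577) and Psmb7 by 0.36 (adjusted p = 0.000997) in wild-type cells, and in knockout cells culture without it raised Psmb5, Psmb6 and Psmb7 by 0.41, 0.23 and 0.31. Each proteasome activator gene was called lower in the knockout in 1 culture, Psme2 without IL-4 (-0.41, adjusted p = 0.0445) and Psme1 with it (-0.28, adjusted p = 0.0187). With IL-4 the means of Psme2 were alike, at -1.36 in WT_IL4 and -1.37 in KO_IL4. Without it Psme1 had means of -0.29 in WT_Ctrl and -0.49 in KO_Ctrl and was not called.

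**Figure D5:**
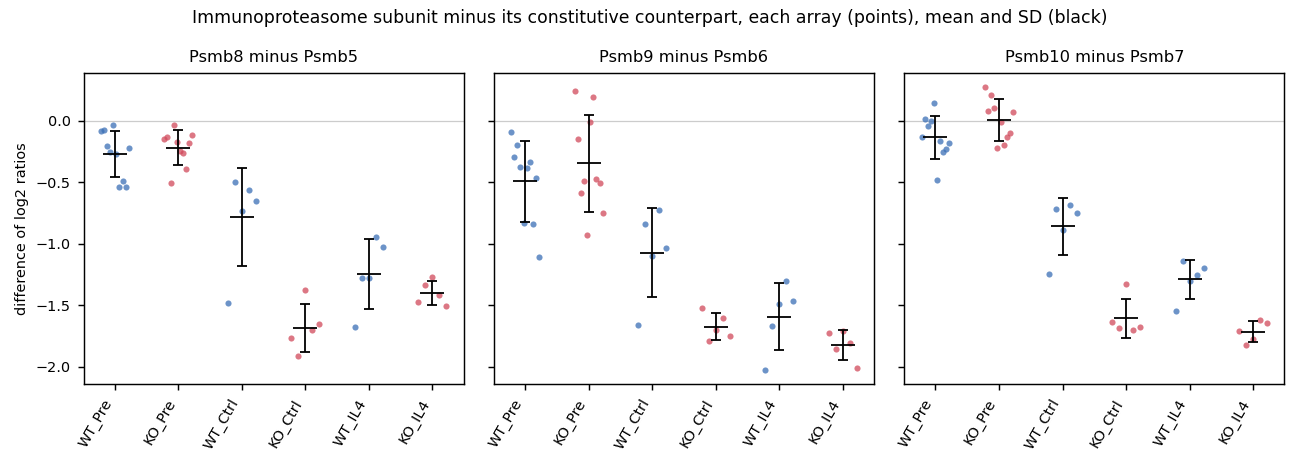
Difference between the log2 ratio of each immunoproteasome subunit and that of its constitutive counterpart, each array as a point with the group mean and SD in black. WT_Ctrl ranges from -1.46 to -0.66 over the mean of the pairs and KO_Ctrl from -1.80 to -1.47.

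The counts of other genes of the pathway are set beside the shares over all genes. In KO_Ctrl against WT_Ctrl, where 8.43% of all genes fell and 6.87% rose, 4 of 23 other class I heavy chain genes fell and 1 rose. Fcgrt, the neonatal Fc receptor, fell by 1.97 (adjusted p = 4.08e-06), and Cd1d1, which presents lipids to NKT cells, by 1.30 (adjusted p = 7.43e-08). H2-T24, a nonclassical class I gene, fell by 0.83 (adjusted p = 0.005). Among 11 other peptide loading and trimming genes 1 fell, Pdia3 (-0.94, adjusted p = 0.0204), the oxidoreductase of the loading complex. Among 13 proteasome genes 1 rose, the assembly chaperone gene Psmg2 (0.43, adjusted p = 0.00114), and 1 fell, Psme2. Of 21 regulators 3 fell and 2 rose. Stat2 (-0.97, adjusted p = 7.93e-06) and Irf9 (-0.65, adjusted p = 0.0405), partners in the interferon signal, fell, and Rfxank (0.39, adjusted p = 0.0351), a subunit of the factor that binds the X box, rose. Irf1 differed by -0.29 (adjusted p = 0.284) and Rfx5 by -0.31 (adjusted p = 0.25).

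With IL-4, where 9.85% of all genes fell and 8.57% rose in the knockout, 4 of 23 heavy chain genes fell and 3 rose, with Fcgrt (-1.04, adjusted p = 0.005), the iron regulator Hfe (-1.47, adjusted p = 0.000293) and H2-Q4 (2.82, adjusted p = 0.000399) among them. The IL-4 effect in wild-type cells raised 6 of 11 loading genes and lowered 0, beside 15.5% and 11.4% of all genes, led by Pdia3 (0.91), the trimming peptidase gene Erap1 (0.87) and the chaperone gene Calr (0.86). In knockout cells 4 of 11 rose and 1 fell, beside 4% and 4.39% of all genes, with Pdia3 at 1.08. Among the regulators IL-4 raised Socs1, an inhibitor of cytokine signalling, by 4.19 in wild-type and by 3.00 in knockout cells, and lowered Irf1 by 0.72 in wild-type cells (adjusted p = 0.00245). 

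Clone, predicted and numbered symbols were left out of a search for genes whose pattern over the 40 arrays was nearest to the mean of the 10. The nearest of the other genes were Mdp1, Ttc38, Itgal, Ldha and Epn1. Their root mean square differences were 0.121 to 0.131 after each gene was centred on its own mean. The 10 genes themselves lay at 0.148 (Tapbp) to 0.438 (Tap2). Across the 20 cultured arrays, after removal of the group means, the 45 pairs of the 10 genes had correlations of -0.609 to 0.941 (median 0.498, 36 above 0). Across the 20 arrays before culture the median was 0.135. These points share the reference, the array's scale and the mouse.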

How the data were processed

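For each probe and array the authors deposited a log2 ratio, test sample in Cy5 over reference pool in Cy3. Per the submitters' processing notes, signals were extracted with Agilent Feature Extraction 11.0.1.1, and per the design text they were analysed in GeneSpring GX. How ratios were normalized within arrays is not given in the sources used here. To check the unit, the spacing of the spike-in probes was compared with a log2 scale. Of 39485 probes 30625 carried 1 gene symbol, named through RefSeq (GRCm38.p6), and probes were averaged into 21892 genes. No filter or further normalization was applied. Intensities were not used here, so the number of arrays limits the precision.

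Differences were tested gene by gene in limma 3.58.1 (lmFit and eBayes, R 4.3.3), with Benjamini-Hochberg adjustment over all genes and calls at an adjusted p under 0.05. KO_Pre against WT_Pre came from 20 arrays and the other comparisons from 1 joint model of 30 arrays (mice 6 to 10), tested on simulated data. The 10 genes and all lists were chosen with earlier results of these data known. The genes named from the other lists are the called ones with the largest differences, plus Psmb5, Psmb6, Psmb7, Psme1, Psme2, Irf1 and Rfx5. By the labels, cells of 1 mouse were used in several states, but the main models held no block for the mouse. The block was run as an alternative. Before culture, residuals of equal numbers in the 2 genotypes correlated at 0.225 to 0.543, and cells of 1 mouse with and without IL-4 at 0.171 to 0.295 (wild-type) and -0.281 to 0.276 (knockout). Alternatives were other normalizations, probe-level tests, a filter on SD, blocks, subsets and leaving out each array. The covariates, the leaving out of wild-type mouse 6 and the settings on the 20 cultured arrays were added after the data were seen.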

Additional observations from a re-analysis of the deposited data

Results flagged for a closer look

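Among 60 sets of values (10 genes in 6 groups) 3 held an array far from the rest of its group, and chance gives about 1 in 20. They were Psmb8 in WT_Ctrl 6 (-1.06, the other 4 arrays at -0.51 to -0.35), Psmb9 in KO_Ctrl 7 (-1.58, the others at -1.30 to -1.23) and Nlrc5 in WT_IL4 7 (-0.23, the others at -0.79 to -0.70).

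The effect of culture without IL-4 differed between the genotypes by an interaction test for Psmb8 (-0.83, adjusted p = 0.0159), Psmb9 (-0.73, adjusted p = 0.0275) and Psmb10 (-0.62, adjusted p = 0.00275), each lower in knockout cells.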

How the results depend on the processing

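Counts are of the 10 genes called, and the cause of a change was not tested. The filter on SD removed genes with an SD at or below the median before the test. A gene of the 10 could thus leave the count without being tested. In the comparisons of cultured knockout cells with those before culture, the filter ended no call of a gene it kept. Elsewhere it ended calls of genes that it kept and tested (limma adjusted p). These were Psmb9 in KO_Ctrl against WT_Ctrl (0.0573), Tap1 in KO_IL4 against WT_IL4 (0.0511) and Psmb9 for culture in wild-type cells (0.0648). In the culture difference they were Psmb9 (0.102) and Psmb10 (0.0813). KO_Ctrl against WT_Ctrl gave 6, and 0 with quantile normalization, 3 with a filter on SD, 3 with the groups compared alone and 2 with quantile normalization of the 20 cultured arrays (4 to 6 leaving out each array in turn). Of its calls, leaving out WT_Ctrl 7 (Tap1 -0.79, Tapbp -0.29), WT_Ctrl 9 (Tap1 -0.89, Psmb9 -0.45), WT_Ctrl 10 (Tapbp -0.35), KO_Ctrl 6 (Tapbp -0.33) or KO_Ctrl 7 (Tap1 -0.81) ended those named. KO_IL4 against WT_IL4 gave 2, and 0 with either quantile normalization, 1 with the SD filter, mice 6 to 9 or the spike-in covariate, and 4 without wild-type mouse 6 or with the mouse number as replicate block (1 to 4 leaving out arrays). Equal numbers of the 2 genotypes correlated at 0.091 to 0.299 with IL-4 and -0.171 to 0.169 without, so they were not taken as pairs. The number block made Tapbp (adjusted p = 0.0283) and Psmb8 (0.0437) called there, and before culture it called 0 members. IL-4 in wild-type cells gave 0, and 2 with the background covariate, 1 with the spike-in covariate, 3 with quantile normalization of the cultured arrays and 1 from the 20 cultured arrays (0 to 1). IL-4 in knockout cells gave 0, and 1 with the mouse as block, the groups compared alone, mice 6 to 9, the background covariate or the 20 cultured arrays (0 to 1). The difference between these gave 0 in every setting run (0 to 0). Culture gave 5 in wild-type cells, and 1 with quantile normalization or the SD filter and 2 with median centring, the groups compared alone or no wild-type mouse 6 (3 to 6). It gave 7 in knockout cells, and 4 with quantile normalization and 3 with the SD filter (7 to 8). The difference gave 3, and 0 with quantile normalization or the SD filter and 1 with the groups compared alone (2 to 4). Cells with IL-4 against before culture gave 4 in wild-type cells, and 2 with quantile normalization or the SD filter (3 to 6), and 6 in knockout cells, and 2 with the SD filter (5 to 9). The mouse as a block changed no call but those given above and in the report.

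Signs turned for Nlrc5 in KO_Ctrl against WT_Ctrl (quantile -0.010, median centring -0.005, first probe -0.388, no wild-type mouse 6 -0.012, background covariate -0.002, cultured quantile -0.009, and leaving out each array in turn -0.024 to 0.063, below 0 without WT_Ctrl 6, WT_Ctrl 8 or KO_Ctrl 8) and for Psmb9 with IL-4 (quantile 0.074, cultured quantile 0.085). They also turned for culture in wild-type cells with quantile normalization (Tapbp 0.049, Psmb9 0.027, Psmb8 0.301) and the background covariate (B2m 0.013, Tap1 0.164). The same covariate turned B2m in knockout cells without (0.118) and with IL-4 (0.053), and quantile normalization turned Psmb8 in knockout cells with IL-4 against before culture (0.123) and Tap1 in the culture difference (0.077).

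With the SD filter only genes with an SD above the median were tested, so its counts come from fewer genes. Over all genes, calls between KO_Ctrl and WT_Ctrl went from 3350 to 674 with quantile normalization and 1184 with the SD filter, 1923 with the groups alone and 2096 with cultured quantile. With IL-4 4032 became 1401, 2116, 2647 (mice 6 to 9) and 1729 (spike-in covariate). IL-4 gave 5899 in wild-type cells (3654 quantile, 2324 SD filter) and 1838 in knockout cells (333, 821, 1168 groups alone, 964 cultured quantile). Its difference gave 261 (159 SD filter, 123 groups alone or cultured arrays, 460 no wild-type mouse 6, 858 cultured quantile). Culture gave 8654 and 11155 (5242 and 6137 SD filter, 4614 and 5477 background covariate), and its difference 1462 (365 quantile, 518 SD filter, 814 mice 6 to 9, 864 spike-in). With IL-4 against before culture 5893 became 2475, and 10166 became 5578 (SD filter) and 5714 (background covariate).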
